A study of Mus musculus with 10 samples.

Results

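The miRNAs described here come from 5 hairpins in one intron of Clcn5, the gene of an endosomal chloride and proton exchanger. The members were 8 mature miRNAs of mouse (prefix mmu), mmu-miR-362-5p, mmu-miR-362-3p, mmu-miR-532-5p, mmu-miR-532-3p, mmu-miR-500-3p, mmu-miR-501-3p, mmu-miR-188-5p and mmu-miR-660-5p, looked up by name. Of these, 7 were among the 1340 mature miRNAs of the table and miR-660-5p was not analysed here. All 7 had a mean normalised signal of at least 10 and so were among the 588 miRNAs tested.

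The RPE/choroid/sclera of 5 right and 5 left eyes, the pigmented, vascular and fibrous layers behind the neural retina, was used for small RNA sequencing. The mice were wild type C57BL/6J at postnatal day 34, and in each animal one eye had carried a -20 dioptre lens for 10 days from postnatal day 24 while its fellow had none. The lens imposes a focus error that drives young eyes toward myopia. Which eye carried it is not in the labels, so right eyes were compared with left eyes, and each library is called by its side and by the number in its title (61, 64, 65, 66 or 68), which one right and one left library share.

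An intronic miRNA cluster is transcribed with its host gene or from a promoter of its own. The enzyme Drosha cuts each hairpin out of the transcript, Dicer removes the loop, and one arm of the remaining duplex is usually loaded into an Argonaute protein while the other is lost. Members of one transcript can therefore still differ in level, through unequal cutting, arm choice and decay of the mature strand. Bases 2 to 8 of the mature strand, the seed, pair with target mRNAs.

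On GRCm38 the Clcn5 gene runs on the minus strand from 7153810 to 7319358 of chromosome X in GENCODE. The 5 hairpins span 10815 bases, from 7237683 to 7248497, on the same strand. All lie in intron 3 of a coding transcript with 15 exons, and in one intron of 2 of the 3 coding transcripts, while the third starts downstream of them. In the direction of transcription the order is Mir532 (7248402 to 7248497), Mir188 (7247989 to 7248056), Mir362 (7241982 to 7242046), Mir501 (7241243 to 7241351) and Mir500 (7237683 to 7237774). The gaps between neighbours are 345, 5942, 630 and 3468 bases, so that Mir532 lies closest to Mir188 and Mir362 to Mir501.

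**Figure D1:**
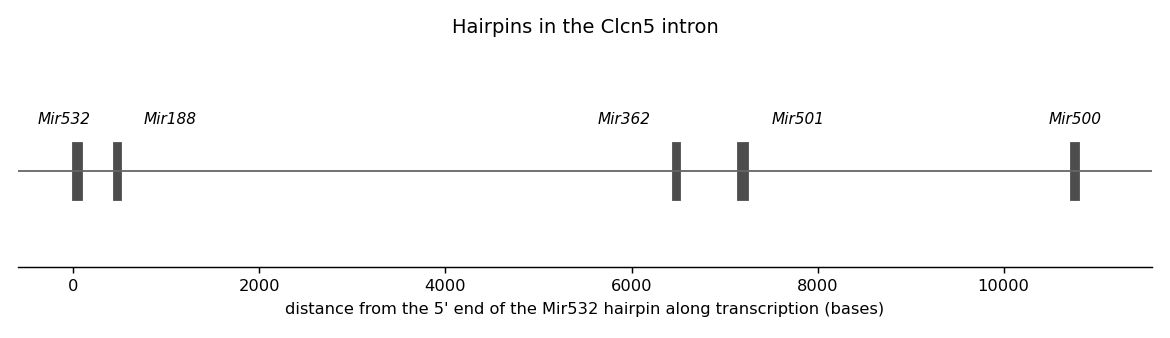
Positions of the 5 hairpins along the Clcn5 intron, as distance in bases from the 5′ end of the Mir532 hairpin in the direction of transcription, with each box drawn to the length of its hairpin. Mir532 and Mir188 sit 345 bases apart at one end, and Mir362 and Mir501 sit 630 bases apart after a gap of 5942 bases.

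The mature strands are shown to compare seeds, which are in capitals, because a shared seed means shared predicted targets and a near-identical strand can share reads. They are RefSeq sequences on GRCm38.p6, written 5′ to 3′, and 6 of the 7 members had an entry.
miR-362-5p: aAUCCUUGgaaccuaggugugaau
miR-362-3p: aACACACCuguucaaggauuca
miR-532-3p: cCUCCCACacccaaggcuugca
miR-500-3p: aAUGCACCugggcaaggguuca
miR-501-3p: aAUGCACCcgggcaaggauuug
miR-188-5p: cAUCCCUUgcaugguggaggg

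The seed AUGCACC is the same in miR-500-3p and miR-501-3p. These strands differ at 4 of 22 bases (U9C, G18A, C21U and A22G, miR-500-3p first, counted from 1 at the 5′ end), and each is the other's closest relative among the 1679 mature sequences searched. The next closest pair with a member is miR-532-3p and the opposite arm miR-188-3p, with 4 differences over 21 bases, followed by miR-362-3p and miR-500-3p, with 5 over 22. The sources used here do not give how many mismatches the authors' alignment allowed, so part of the reads of such pairs could have been counted for the other strand. The seed of miR-362-5p is also that of the minor arm miR-500-5p. Outside the cluster, among the 502 of 588 tested miRNAs with a sequence entry, miR-329-3p was the 1 found with the seed of one of the 6 members searched, ACACACC of miR-362-3p. In human breast cancer cells miR-362-3p and miR-329-3p are known to target BCAR1, an adaptor protein of cell adhesion.

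The Mir362 hairpin is printed with both mature arms in capitals, the 5p arm first, because the balance of these arms passed the test of differences between title numbers.
Mir362: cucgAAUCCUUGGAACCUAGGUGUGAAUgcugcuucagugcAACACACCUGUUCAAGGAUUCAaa

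The deposited values are a normalised signal, not counts, and the depth of the libraries is unknown, so no counting interval can be given. The signal of each library sums to between 11878152 and 11879036, and a miRNA can take exactly the same value in several libraries, so that each member had 8 to 10 different values over the 10. Different miRNAs also shared values across libraries. The value 143.93 was that of miR-500-3p in right eye 66 and of miR-362-3p in right eye 68. Likewise 62.721 was that of miR-362-5p in left eye 65 and of miR-362-3p in left eye 64. A signal may thus follow the rank of a miRNA within its library more than its amount, which was not tested. The pigment epithelium markers miR-204-5p and miR-211-5p summed to between 1959 and 1989 k (k for 1000 units of signal) in every library. The normalisation is not stated, and whether it holds such high signals level was not tested. This narrow range therefore does not show an equal pigment epithelium content. Right eye 68 stood apart in the 5 retina and neuron miRNAs, miR-182-5p, miR-183-5p, miR-96-5p, miR-124-3p and miR-9-5p, with a sum of 1330.3 k, against 263 k in left eye 68 and 189 to 473 k in the other 8 libraries. No listed marker of any cell type was at 0 in any library. Results that rest on number 68 are also given without it.

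The cluster was a minor part of this tissue's miRNAs and its members spanned a wide range. In such whole-tissue samples, fewer cells that make a miRNA and less of it per cell cannot be told apart. The 7 members summed to 5635 ± 740 in right eyes and 5809 ± 502 in left eyes (SD, n = 5 each), which was 0.0378% to 0.0560% of a library's signal. The sum was lowest in right eye 68, at 4494, and highest in left eye 61, at 6657.5, and the right eye was above the left in 2 of 5 numbers. Most of it came from miR-532-5p and miR-501-3p, which together held 87.2% to 91.4% of the sum in each library. All members are 21 to 24 bases long where a sequence was at hand, so their levels were compared without correction for length, although ligation in library making can favour one small RNA over another.

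The highest member was miR-532-5p, which in human gastric cancer cells is known to target the transcription factor RUNX3. Its signal was 3768, 4256, 3595, 3303 and 2608 in right eyes 61, 64, 65, 66 and 68, against 3768, 3595, 3699.6, 3553 and 2956 in the left eyes in the same order. It ranked between 99 and 119 of all miRNAs, and both eyes of number 68 lay below all 8 other libraries. The sides overlapped, with means of 3506 ± 610 in right and 3514 ± 324 in left eyes (SD, n = 5 each).

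Next was miR-501-3p, which in rat hippocampal neurons is known to regulate an AMPA receptor subunit. It had 1982, 1358, 1481, 1593 and 1309 in right eyes 61, 64, 65, 66 and 68, against 2316, 1524, 1309, 1618 and 1729 in left eyes. Both eyes of number 61 were above all the other libraries, and the same value of 1309 was found in right eye 68 and left eye 65. It was lower than miR-532-5p in all 10 libraries and 7.87 times as high on average as the third member, miR-532-3p.

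The middle of the order was held by miR-532-3p, which in mouse heart cells is known to target the apoptosis repressor ARC, with 168 to 248 in right eyes and 191 to 229 in left eyes, and by miR-500-3p, with 144 to 166 in right eyes and 142 to 165 in left eyes. The first was above the second in every library, although their ranges nearly met. The signal of miR-500-3p varied least of all members, with a coefficient of variation of 5.93% over the 10 libraries, where the median of the tested miRNAs was 23.2% and 7 of the 588 had a lower one. This narrow spread of miR-500-3p stands beside a spread of 19.7% for miR-501-3p, the strand with the same seed and 4 different bases.

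The lowest members were miR-362-3p, miR-188-5p and miR-362-5p. The signal of miR-362-3p was 68.8, 67.9, 86.7, 103 and 144 in right eyes 61, 64, 65, 66 and 68, against 68.8, 62.7, 81.3, 69.7 and 139 in left eyes. Both eyes of number 68 were far above the rest, right eye 66 came next, and the coefficient of variation of 33.7% was the largest among the members. The signal of miR-362-5p, known in human liver cancer cells to target the deubiquitinase CYLD, was 74.0, 45.8, 47.4, 59.1 and 37.7 in right eyes 61, 64, 65, 66 and 68, against 70.7, 57.0, 62.7, 66.7 and 56.6 in left eyes. Here right eye 68 had the lowest value of all and number 61 the highest pair, and the right eye was above the left in 1 of 5 numbers.

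For miR-188-5p, known from mouse bone marrow for its part in the switch between bone and fat cell fates, the signal was 85.4, 114, 68.8, 75.4 and 64.7 in right eyes 61, 64, 65, 66 and 68, against 86.7, 81.3, 83.6, 72.3 and 84.4 in left eyes. Right eye 64 was the highest library, as it was in miR-532-5p, miR-532-3p and miR-500-3p. The order of miR-362-3p and miR-188-5p was not settled, as the first was above the second in 4 of 10 libraries, while all other neighbours in the order held in all 10.

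**Figure D2:**
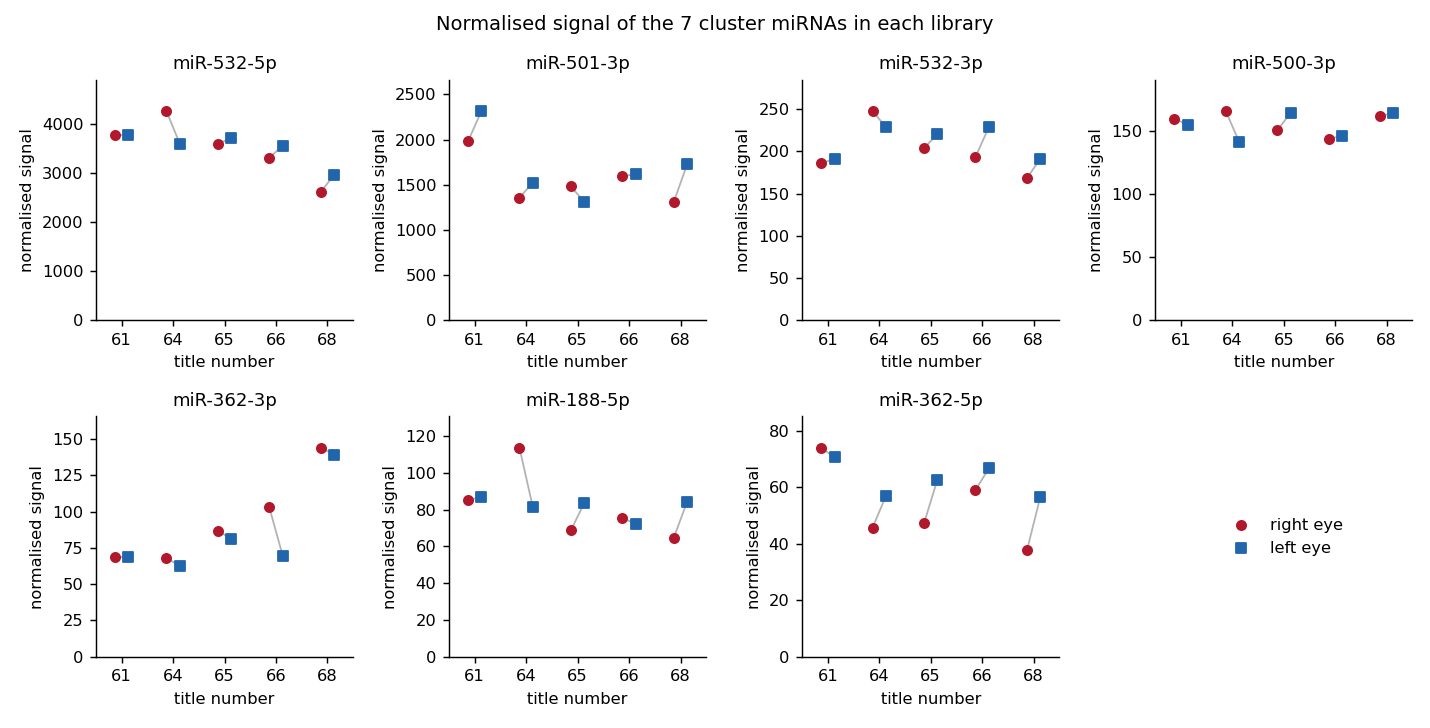
Normalised signal (vertical axes, from 0) of the 7 members in right eyes (circles) and left eyes (squares) of the 5 title numbers, with grey lines between the eyes of a number. Number 68 has the 2 lowest values of miR-532-5p, 2608 and 2956, and the 2 highest of miR-362-3p, 144 and 139.

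The first comparison asked whether a member differs between right and left eyes, the contrast that would carry a lens effect only if the lens had been on the same side in most animals. No member differed in limma on log2(signal + 1) with the number as a block, with adjusted p between 0.967 and 0.985 over all 588 miRNAs, none of which passed (0.0% called at an adjusted p of 0.05). At an unadjusted p under 0.05 there were 0 members and 13 miRNAs in all (2.21%). No member had the same direction in all 5 numbers, as 17 miRNAs had (2.89%). Right-eye means were higher for 2 members and lower for 5, with a median log2 difference of -0.03, and over all tested miRNAs 321 were higher and 267 lower with a median of 0.02.

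The smallest unadjusted p among members, 0.0925 in limma, was that of miR-362-5p, with 52.8 ± 14.1 in right and 62.7 ± 6.12 in left eyes (SD, n = 5 each) and a log2 fold change of -0.28 ± 0.14 (SE). Its 95% interval ran from -0.61 to 0.06. The other arm, miR-362-3p, had 94.1 ± 31.4 in right and 84.4 ± 31.4 in left eyes and a log2 fold change of 0.16 ± 0.13 (interval -0.14 to 0.47), with the right eye above the left in 4 numbers and both tied in number 61.

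For the most abundant members the intervals were narrower. The log2 fold change of miR-532-5p was -0.02 ± 0.08 (SE, 95% interval -0.21 to 0.18). For miR-501-3p it was -0.13 ± 0.10 (-0.37 to 0.11), with a mean of 1545 ± 268 in right and 1699 ± 378 in left eyes. The remaining log2 fold changes were -0.09 for miR-532-3p (-0.33 to 0.14), 0.02 for miR-500-3p (-0.22 to 0.26) and -0.03 for miR-188-5p (-0.39 to 0.34). Every one of these intervals lay within a 2-fold change in either direction on the log2(signal + 1) scale, which differs little from the signal itself at these levels. The part of the authors' normalisation in these narrow intervals was not tested.

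The second comparison asked whether eyes that share a number are more alike than eyes of different numbers, by the F test of the number in the same limma model. The number can stand for the animal and for anything handled with it, such as a day or a run, and these cannot be told apart. No member passed at the adjusted threshold, against 7 of 588 miRNAs (1.19%). At an unadjusted p under 0.05 there were 3 of 7 members, miR-362-3p, miR-501-3p and miR-532-5p, where the share of all tested miRNAs was 23.3%.

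The largest span between numbers was that of miR-362-3p, whose mean signal was 142 in number 68, 86.4 in 66, 84.0 in 65, 68.8 in 61 and 65.3 in 64. This is a span of 1.11 on the log2 scale, and same-numbered eyes lay at most 0.56 apart (limma F = 9.24, unadjusted p = 0.00642, adjusted p = 0.0941). Without number 68 the span was 0.37 with adjusted p = 0.534 in limma. With only right eye 68 left out, the span was 1.08 with adjusted p = 0.254.

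In miR-532-5p the direction was the opposite, with a mean signal of 2782 in number 68 and 3428 to 3925 in the other 4 (span 0.49, unadjusted p = 0.0440, adjusted p = 0.204 in limma). Without number 68 its span was 0.19 with adjusted p = 0.754. The high number of miR-501-3p was 61, at a mean of 2149, while the other 4 had 1395 to 1605 (span 0.62, unadjusted p = 0.0331, adjusted p = 0.185 in limma), and without number 61 the span was 0.21 with adjusted p = 0.781. For the 4 other members the spans were 0.64 for miR-362-5p, 0.41 for miR-532-3p, 0.38 for miR-188-5p and 0.17 for miR-500-3p. The median span of the members was 0.49, against 0.67 over all tested miRNAs. Number 68 held the highest or lowest mean in 5 of 7 members (71.4%), and in 371 of 588 miRNAs tested (63.1%), so standing at an end in number 68 was common in this table.

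The third comparison asked which arm of each hairpin was kept and whether that varies. In Mir532 the 5p arm led in all 10 libraries, at 17.1 ± 1.73 times the 3p arm (SD, n = 10), with values from 15.4 to 20.3. In Mir501 the 3p arm led in all 10, by 73.3 to 509 times, a wide range that rests on the low signal of miR-501-5p, 3.18 to 17.9. In Mir500 the 3p arm also led throughout, since miR-500-5p had at most 8.91 and was listed at 0 in right eye 65 and left eye 64. In Mir188 the 5p arm led throughout, with miR-188-3p between 1.24 and 14.0. The minor arms miR-500-5p and miR-188-3p had means below 10 and their ratios were not tested.

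In Mir362 the arms were closer to balance in every library than those of the other hairpins of the cluster, and the balance of Mir362 moved with the number. The 3p arm was 0.929, 1.48, 1.83, 1.74 and 3.82 times the 5p arm in right eyes 61, 64, 65, 66 and 68, against 0.973, 1.10, 1.30, 1.05 and 2.46 times in left eyes. The 5p arm was thus the higher one in both eyes of number 61, the 3p arm was higher in the other 8 libraries, and number 68 had the most 3p relative to 5p. In number 68 the 2 arms printed above moved apart, with the highest miR-362-3p of all libraries in both eyes and, in right eye 68, the lowest miR-362-5p.

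Between numbers the log2 of the Mir362 arm ratio, 5p over 3p, averaged 0.07 in 61, -0.35 in 64, -0.43 in 66, -0.61 in 65 and -1.59 in 68. This span of 1.67, against a largest gap of 0.73 between the eyes of a number, passed in limma (F = 15.6, adjusted p = 0.0327 over 158 hairpins). It was 1 of 17 hairpins that passed (10.8%), at an unadjusted p of 0.00169, where 29.7% of all had one under 0.05, and the median span of all 158 was 0.80. Of the 17 hairpins, 12 had their highest or lowest ratio in number 68, as had 58.2% of all 158. The call rested on number 68: without it the span was 0.69 with adjusted p = 0.308 in limma. It was also lost without number 64 (adjusted p = 0.0745), without 65 (0.0585), without right eye 68 alone (span 1.35, adjusted p = 0.161) and without left eye 68 alone (span 1.98, adjusted p = 0.124).

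The high retina and neuron sum of number 68 was in its right eye alone (1330.3 k, against 263 k in the left), while both of its eyes had the high 3p arm. Left eye 68 had the highest sums of 3 other lists. For the 4 striated muscle miRNAs it had 104 k, against 50.3 k in right eye 68 and 25.9 to 79.3 k in the other 8 libraries. For the 4 fibroblast and smooth muscle miRNAs it had 1060.2 k, against 843 k in right eye 68 and 836 to 1008 k in the others, and for the 4 leukocyte miRNAs 15.6 k, against 12.7 k and 9.61 to 15.2 k. The part of these cells in the ratio was not tested.

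Between sides, the log2 ratio of Mir362 averaged -0.80 ± 0.72 in right and -0.36 ± 0.54 in left eyes (SD, n = 5 each), and it was lower in the right eye in 4 of 5 numbers. The difference was -0.44 ± 0.14 (SE), with a 95% interval of -0.77 to -0.10, an unadjusted p of 0.0177 and an adjusted p of 0.792 in limma. It had the second smallest p of the 158 hairpins, none of which passed (0.0%), while 3 had an unadjusted p under 0.05 (1.90%). The ratio of Mir532 was the steadiest of the 3 tested, at 4.12 ± 0.14 in right and 4.04 ± 0.15 in left eyes, a difference of 0.08 (interval -0.16 to 0.32, adjusted p = 0.945 in limma). This small difference had the right eye higher in all 5 numbers, and 6 of the 158 hairpins (3.8%) had one direction in all 5. Its means by number ran from 3.94 in 68 to 4.31 in 61 and did not pass (adjusted p = 0.422). For Mir501 the difference between sides was 0.39 (interval -0.52 to 1.31, adjusted p = 0.935), and the number test gave adjusted p = 0.434.

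**Figure D3:**
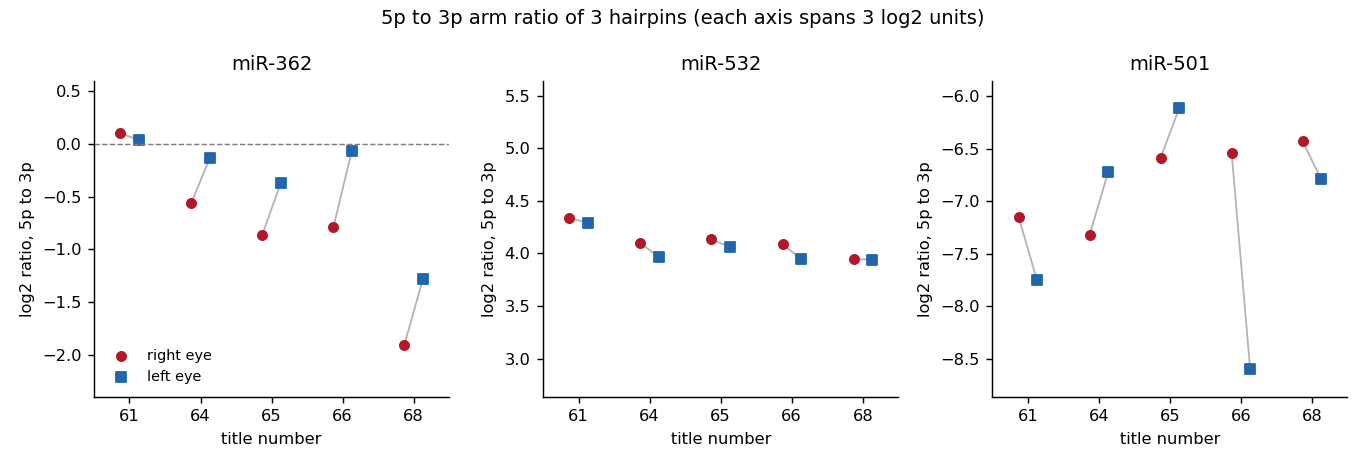
Log2 arm ratio, 5p over 3p (vertical axes, each spanning the same 3 log2 units) of Mir362, Mir532 and Mir501 in right eyes (circles) and left eyes (squares) by title number, where the dashed line marks equal arms. Mir362 falls to -1.91 and -1.28 in the right and left eye of number 68, while Mir532 stays between 3.94 and 4.34.

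The fourth comparison asked whether members of the one intron vary together across the 10 libraries. They did not move as one block: of 21 pairs of members, 11 had a positive and 10 a negative Pearson r on log2(signal + 1), with a median of 0.10, where the median over all pairs of tested miRNAs with any spread was 0.00 to 2 decimals. The 10 libraries are both eyes of 5 numbers and share one normalisation, so the permutation p-values, which treat them as independent, are likely too small.

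The strongest relation was a negative one, between miR-532-5p and miR-362-3p, with r = -0.893 (permutation p = 0.00086, adjusted over the 21 pairs 0.0181, n = 10) and Spearman's rho = -0.795 (permutation p = 0.00847, adjusted 0.166). Without number 68, whose eyes lie farthest out in miR-532-5p, r was -0.592 over 8 libraries (exact permutation p = 0.127). A negative value thus remained, at r = -0.83 without right eye 68 alone, but it did not pass without number 68. No other pair passed the adjustment over the 21 pairs.

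Positive values were found between miR-532-5p and miR-188-5p, from hairpins 345 bases apart, with r = 0.689 and rho = 0.750 over 10 libraries (permutation p = 0.0326 and 0.0158, adjusted 0.161 and 0.166). Here r was 0.873 without number 68 (8 libraries, exact permutation p = 0.0116) and 0.551 without right eye 68 alone. From the hairpins at opposite ends of the row, miR-532-5p and miR-500-3p had r = -0.049 and rho = 0.245 over 10 libraries (permutation p = 0.894 and 0.490, adjusted 0.894 and 0.686) and r = 0.784 without number 68 (8 libraries, exact permutation p = 0.00704), and r was 0.208 without right eye 68 alone. The exact p-values over 8 libraries were not adjusted over the 21 pairs, so they do not count as passing. The arms of Mir532 had r = 0.719 and rho = 0.368 (permutation p = 0.0166 and 0.291, adjusted 0.137 and 0.626). Without number 68 these arms had r = 0.454 and rho = -0.018. Between miR-501-3p and miR-362-5p, from hairpins 630 bases apart, r was 0.716 and rho 0.687 (permutation p = 0.0196 and 0.0322, adjusted 0.137 and 0.225), and r was 0.537 without number 61. From the same hairpins, miR-501-3p and miR-362-3p had r = -0.267 and rho = -0.22. From the hairpins 345 bases apart, miR-532-3p and miR-188-5p had r = 0.546 and rho = 0.152, and 0.405 and -0.024 without number 68. Without right eyes 64 and 68, the libraries farthest out in miR-532-3p, their r was -0.336. Between miR-501-3p and miR-532-3p r was -0.313, and -0.711 without number 68 but -0.038 without number 61. The arms of Mir362 had r = -0.526 and rho = -0.365 (permutation p = 0.116 and 0.298, adjusted 0.348 and 0.626). Without number 68 these arms had r = -0.194 and rho = 0.036. The near-identical strands miR-500-3p and miR-501-3p had r = -0.142 and rho = -0.284 (permutation p = 0.699 and 0.423, adjusted 0.777 and 0.634).

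The member least like the others over the 10 libraries was miR-362-3p, whose median r with the other 6 was -0.49. There it correlated positively only with miR-500-3p (r = 0.313). Without number 68 its r with every other member was negative, from -0.592 (miR-532-5p) to -0.179 (miR-500-3p), and it was -0.385 with miR-532-3p and -0.194 with miR-362-5p. The highest medians with the other members were 0.31 for miR-532-5p and 0.31 for miR-188-5p. For the rest they lay between -0.10 and 0.15. With the 580 other tested miRNAs that had any spread, every member had a median r between -0.05 and 0.07.

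**Figure D4:**
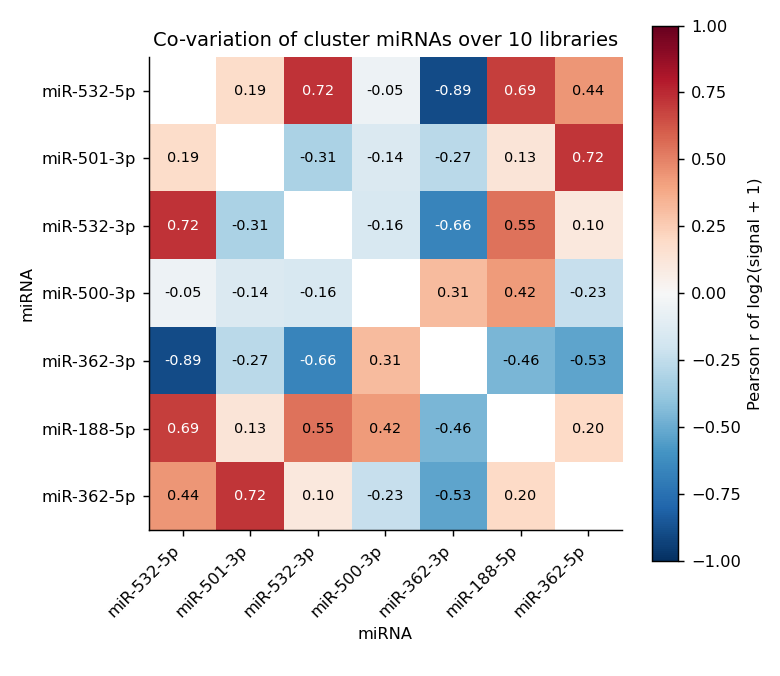
Pearson r of log2(signal + 1) over 10 libraries for each of the 21 pairs of members (both axes list the members by mean signal, and colour and printed number give r). The row of miR-362-3p is negative except with miR-500-3p, down to -0.89 with miR-532-5p, and the highest values are 0.72.

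**Figure D5:**
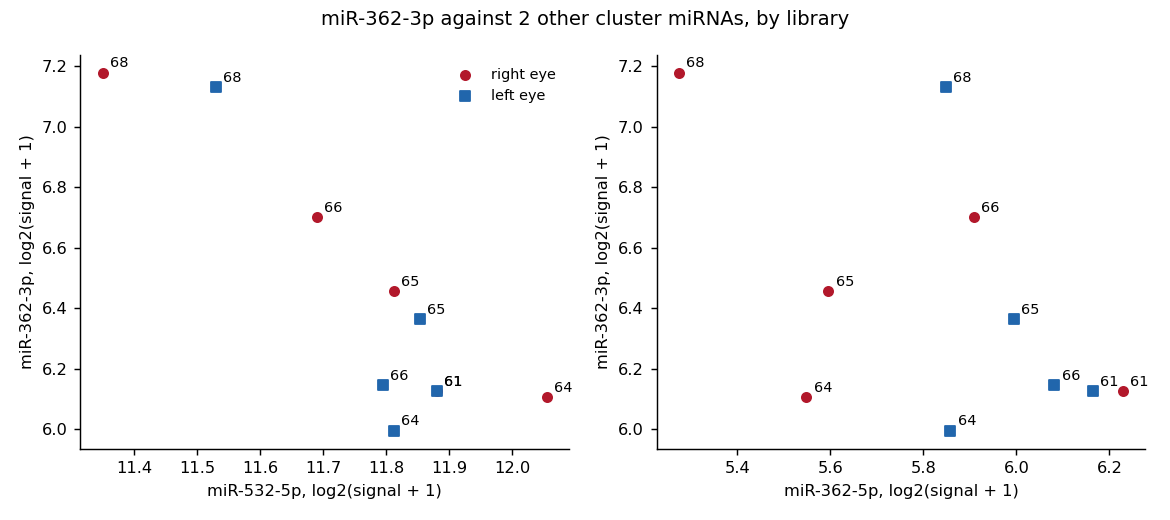
Log2(signal + 1) of miR-362-3p (vertical axes) against miR-532-5p and miR-362-5p (horizontal axes), one point for each library, with the title number beside it, right eyes as circles and left eyes as squares. Both eyes of number 68 lie above 7.1 on the vertical axes and the 8 other libraries below 6.8, and in miR-532-5p, but not in miR-362-5p, both are also the 2 farthest left.

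Among tested miRNAs outside the 5 hairpins, those most like the mean of the 7 standardised members over the 10 libraries were miR-193b-3p (r = 0.844), miR-125b-1-3p (0.834), miR-6956-3p (0.826), miR-139-5p (0.804) and miR-93-3p (0.787). None of them is encoded on chromosome X, and they were picked as the highest of all tested, so these values are a description. Without number 68 the r of the 5 lay between 0.637 and 0.762. The mean of the members is a mixed profile, which miR-188-5p followed most closely (r = 0.866) and miR-362-3p opposed (r = -0.512). Each member is itself part of that mean, which raises its r, so these values cannot be set beside those of the 5 outside miRNAs.

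The seed sharer miR-329-3p did not follow the pattern of miR-362-3p in number 68. Its signal was 54.9, 45.8, 95.7, 96.4 and 61.01 in right eyes 61, 64, 65, 66 and 68, against 66.1, 62.7, 54.9, 77.5 and 77.5 in left eyes. The highest libraries were right eyes 65 and 66, and both eyes of number 68 were within the range of the other 8.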

How the data were processed

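Per the submitters' processing notes, the authors used Bowtie and Partek, of versions not stated, with the mouse build GRCm38 (mm10) for the small RNA libraries. The authors deposited a normalised signal for 1340 miRNAs, and the sources used here do not give its normalisation. Only 7.31% of the non-zero values lie within 0.001 of a whole number. Count models were therefore not used, and depth is unknown.

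Libraries were grouped by the side in the labels. Values were analysed as log2(signal + 1) for the 588 miRNAs with a mean of at least 10, with limma 3.58.1 in R 4.3.3 (mean-variance trend, side and number as terms, two-sided, Benjamini-Hochberg adjustment over all miRNAs or all 158 hairpins with both arms tested, threshold 0.05). The fits were also run on simulated data with planted shifts and independent noise. Such data lack the shared values of the deposited signal, so that run does not check the p-values for these data. The block follows the protocol, which sets each lens eye against its fellow, and the pairing is read from the number that titles share. Each eye's deviation from the mean of its side was correlated with that of its fellow across miRNAs, with values of 0.12, 0.45, 0.01, -0.13 and 0.28 for numbers 61, 64, 65, 66 and 68. Nothing in the labels says more about separate litters or runs, so p-values measure the spread between these samples.

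Correlations used 100000 permutations (Python 3.11.15, NumPy 2.4.6), or all orders of 8 libraries. Named miRNAs were the members, their other arms, tested miRNAs with a member's seed and the 5 most like the members' mean. Members, lists and tests were chosen with earlier results of these data known. The alternatives were other pseudocounts, signal minimums, centring, variance models and terms, and leaving out each number. Leaving out single eyes of number 68 was chosen after the values were seen. Sequences were matched by name in RefSeq, and the deposited start is the RefSeq start in 1133 of 1135 matched miRNAs, with the deposited stop lying 1 base past the RefSeq end.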

Additional observations from a re-analysis of the deposited data

Results flagged for a closer look

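Of 22 checks of members, arm ratios and the cluster sum within a side, 1 stood out. In left eye 68 the signal of miR-532-5p was 2956, far below the other 4 left eyes, which had 3553 to 3768. Chance marks about 1 in 20 such groups, and the members share the same libraries, so the checks are not independent. Right eye 68 had the lowest right value of the same miRNA, 2608, but did not stand out, as the right eyes ran from 2608 to 4256.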

How the results depend on the processing

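No miRNA differed between sides under any alternative, and without the number as a block (no replicate block) 0 miRNAs and 0 hairpins passed between sides, as with it. Between numbers the count of miRNAs passing was 7, and it was 23 at a minimum mean signal of 100 (339 tested), 12 with each library centred on its median, 0 without a variance trend and 26 without the side term. It ran from 0 to 22 with a number or an eye of 68 left out. The count of hairpins passing between numbers was 17, and it was 30 with a pseudocount of 10, 0 without a minimum signal (441 tested), 29 at a minimum of 100 (85 tested) and 0 to 21 with a number or an eye of 68 left out. Between sides 0 to 1 hairpins passed with a number left out. These counts are of any miRNAs or hairpins. No member passed in any of the miRNA counts, and Mir362, between numbers, was the only cluster hairpin that passed in any hairpin count. Between numbers the Mir362 ratio kept its call with a pseudocount of 0.1 or 10 and without a variance trend, could not change under centring, which cancels within a library, and lost its call without a minimum signal (adjusted p = 0.333 in limma, with more hairpins tested) and without the side term (0.0569), and its arms fall below a minimum of 100. Differences between sides near 0 changed sign with a number left out: the log2 difference, right minus left, ran from -0.082 to 0.024 for miR-532-5p (above 0 without 66 or 68), from -0.033 to 0.056 for miR-500-3p (below 0 without 64), from -0.154 to 0.060 for miR-188-5p (above 0 without 65 or 68), and from -0.024 to 0.639 for the Mir501 ratio (below 0 without 66). The median r of the members ran from -0.106 to 0.154 and the mean difference of the cluster sum, right minus left, from -358 to -10.4 with numbers left out, against -174 with all. The cause of these shifts was not tested. Low members and minor arms lie near the low end of the signal, where unknown depth limits most.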
